A study of Homo sapiens with 192 samples.

Results

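The 10 genes of a goblet cell program were followed across 4 colorectal cancer (CRC) cell lines grown in 2D and in 3D. They were chosen by symbol and found in the count files by Ensembl identifier: the transcription factors ATOH1 and SPDEF, the trefoil peptides TFF1, TFF2 and TFF3, the mucus protein FCGBP, the mucin-folding factor AGR2, and the secreted proteins SPINK4, REG4 and TCN1. All 10 were among the 58243 genes in the files, and all 10 passed the filter on low counts that kept 19387 genes for testing. HT29 and LS513 are microsatellite stable CRC lines, and LS174T and HCT116 are microsatellite instable ones. Every line is an established one and was sequenced untreated, with 3 libraries of 2D cells and 3 of 3D cells, so that there were 24 libraries in 8 groups. LS513, LS174T and HT29 were kept in DMEM and HCT116 in McCoy medium, so that medium and line cannot be told apart for HCT116. The labels give the growth condition as 2D or 3D alone and do not say how 3D cultures were made or whether the 3 libraries of a group came from separate cultures, so p-values measure the spread between these libraries, which may be technical.

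Goblet cells are the mucus-secreting cells of the intestinal epithelium. Progenitors enter the secretory lineage when Notch signalling is low and the transcription factor ATOH1 is made, and SPDEF then promotes goblet cell maturation. Mature goblet cells fold and secrete the gel-forming mucin MUC2 together with trefoil peptides and other small proteins, and many CRC lines keep or lose parts of this program.

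Poly(A) RNA was sequenced as single reads, and the authors deposited raw counts per gene. Technical replicates were summed to 1 count per library, and library totals ranged from 18723942 in HT29 2D replicate 3 to 34277421, with a median of 30777613. Levels are given in CPM, which set each count against the size of its library after TMM scaling in edgeR. A gene was regarded as detected above 3 counts in a library, which is 0.0875 to 0.160 CPM before scaling, and this limit covers counting error only. The 7 epithelial markers summed to between 3143 and 17489 CPM in every library, with KRT8 the highest, and 1 of them, the intestinal cadherin CDH17, had at most 2 counts in any library of HCT116. Of 10 stromal and immune markers, COL1A2 and CD3E had 0 counts in all libraries and CD68 was the highest in every line, and their sums ranged from 2.47 to 93.1 CPM. The 3D libraries of each line were compared with its 2D libraries by edgeR's quasi-likelihood test on all 24 libraries, p-values were two-sided and adjusted by the Benjamini-Hochberg method over all 19387 genes, and a gene was called at an adjusted p under 0.05. With 3 libraries against 3, an exact permutation test cannot go below p = 0.1, so no such test was used.

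The 4 lines held the program at very different levels. The summed CPM of the 10 genes was 152 to 175 in HT29 2D, 2451 to 2615 in LS513 2D, 966 to 1010 in LS174T 2D and 5.69 to 6.55 in HCT116 2D. In 3D the sums were 402 to 435 in HT29, 2543 to 3847 in LS513, 1770 to 3224 in LS174T and 5.05 to 11 in HCT116. The ranges of 2D and 3D sums did not overlap in HT29 and LS174T, whereas they overlapped in LS513 and HCT116. In HT29, LS174T and HCT116 single genes carried much of these sums. AGR2 had a mean of 86.4 CPM in HT29 2D and 329 CPM in HT29 3D, beside mean sums of 161 and 421 CPM. In LS174T 2D and 3D AGR2 had means of 712 and 1734 CPM, beside mean sums of 993 and 2409 CPM. In HCT116 2D and 3D FCGBP had means of 5.50 and 7.78 CPM, beside mean sums of 6.09 and 8.58 CPM. These are bulk RNA samples, in which fewer cells of a type and less RNA per cell cannot be told apart.

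**Figure D1:**
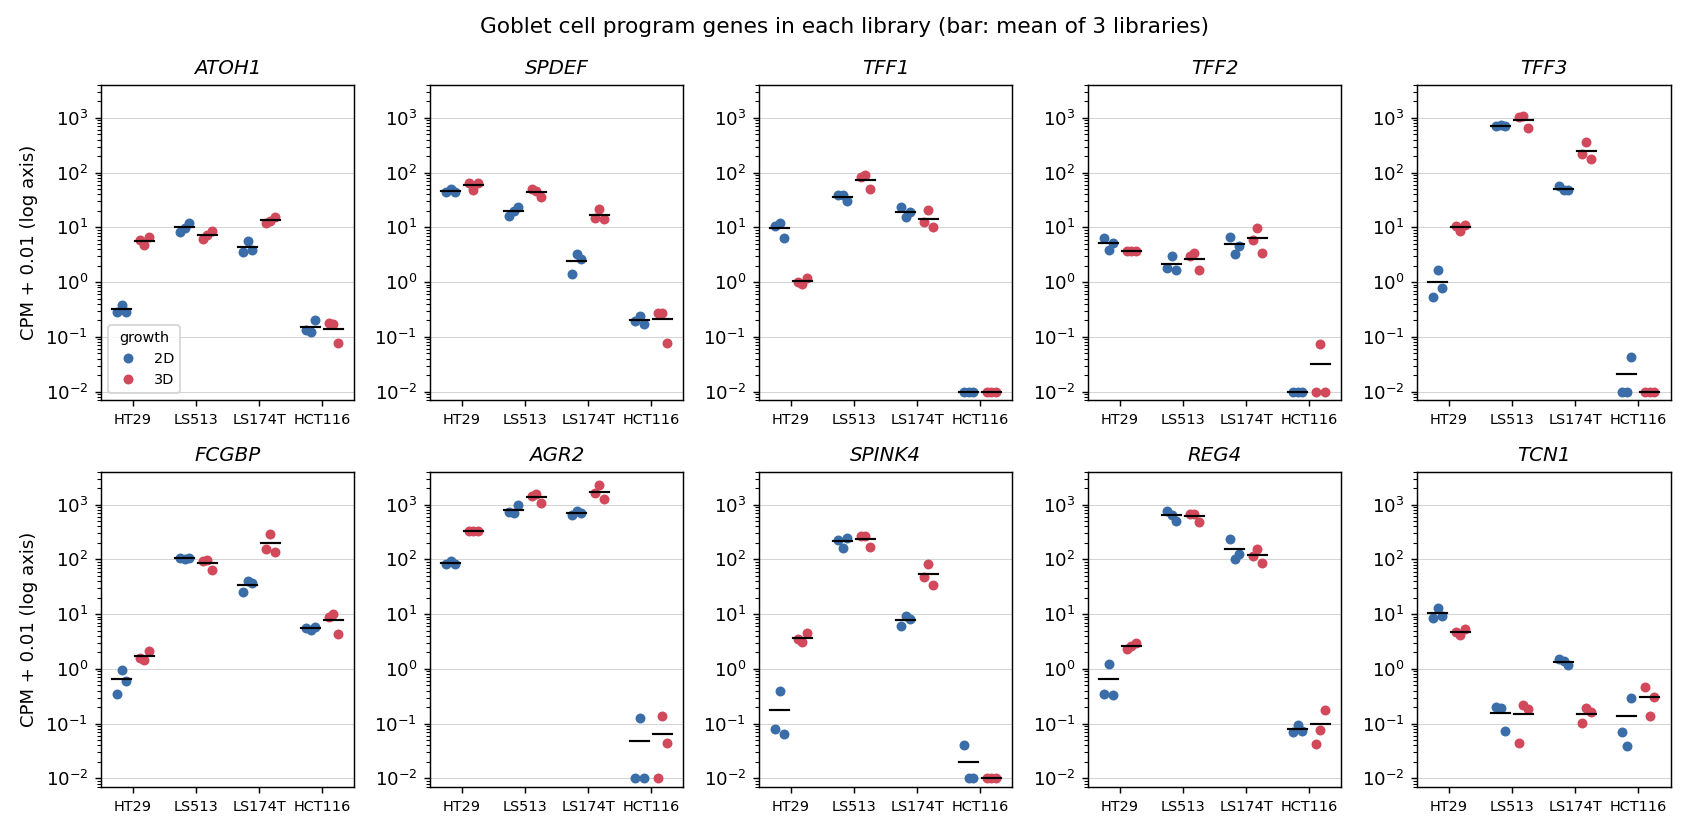
CPM of each of the 10 genes in every library, with 0.01 added for a log axis, by cell line; blue points are 2D libraries, red points 3D libraries, and bars the mean of 3 libraries. ATOH1, TFF3 and SPINK4 separated fully between 2D and 3D in HT29 and LS174T, and 8 of the 10 genes had at most 10 counts in every HCT116 library.

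The promoters of 4 members are shown, namely the 2 transcription factors and 2 secretory genes that rose together with ATOH1 in HT29 and LS174T. Each is the 250 bases before the RefSeq start on GRCh38.p14, read 5′ to 3′ on the strand of the gene, and capitals mark CANNTG, the E-box core that basic helix-loop-helix factors such as ATOH1 bind.
ATOH1 (chr4:93828503-93828752, plus strand): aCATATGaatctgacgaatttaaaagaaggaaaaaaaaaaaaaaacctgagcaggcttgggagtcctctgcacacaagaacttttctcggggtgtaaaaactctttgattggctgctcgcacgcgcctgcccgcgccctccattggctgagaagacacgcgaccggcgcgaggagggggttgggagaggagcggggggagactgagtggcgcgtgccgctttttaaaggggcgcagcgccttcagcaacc
SPDEF (chr6:34556330-34556579, minus strand): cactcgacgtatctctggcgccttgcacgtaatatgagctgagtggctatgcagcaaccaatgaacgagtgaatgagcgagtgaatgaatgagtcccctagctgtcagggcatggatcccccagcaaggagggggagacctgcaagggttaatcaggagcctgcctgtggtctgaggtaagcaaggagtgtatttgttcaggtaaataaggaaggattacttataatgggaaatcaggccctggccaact
SPINK4 (chr9:33239917-33240166, plus strand): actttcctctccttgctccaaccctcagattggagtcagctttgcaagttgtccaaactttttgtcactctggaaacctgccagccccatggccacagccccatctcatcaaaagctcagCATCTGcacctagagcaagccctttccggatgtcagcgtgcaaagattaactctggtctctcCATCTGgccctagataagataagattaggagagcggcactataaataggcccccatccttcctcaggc
AGR2 (chr7:16805000-16805249, minus strand): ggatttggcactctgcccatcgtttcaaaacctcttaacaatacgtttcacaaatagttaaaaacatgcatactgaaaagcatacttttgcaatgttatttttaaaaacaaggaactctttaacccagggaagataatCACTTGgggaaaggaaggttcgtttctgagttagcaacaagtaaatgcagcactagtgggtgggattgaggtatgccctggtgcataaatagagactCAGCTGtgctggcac

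RefSeq promoters were matched for 7 of the 10 members, all but TFF1, TFF2 and TFF3. Both strands were searched for CANNTG, for its special form CAGCTG, for the ETS core GGAA that SPDEF-like factors bind, for the forkhead words TGTTTAC and TGTTTGC, and for ACGTG. The E-box core CANNTG occurred 2 times each in the SPINK4, AGR2 and TCN1 promoters, 1 time each in those of FCGBP and ATOH1, and not in those of REG4 and SPDEF. Of all 35116 promoters of this length, 61.8% held CANNTG. One of the AGR2 matches was CAGCTG, which 14.0% of all promoters held. GGAA was found in all 7 promoters, with 4 matches each in SPINK4 and AGR2, and in 92.7% of all promoters. REG4 alone among the 7 had TGTTTGC, which 3.23% of all promoters held, none had TGTTTAC, which 2.98% held, and REG4 and SPDEF each had ACGTG, which 18.5% held. These matches describe the letters of the windows only.

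ATOH1, the basic helix-loop-helix factor that commits cells to the secretory lineage, is encoded by 1 exon on chr4:93828753-93830964 (GRCh38, plus strand; Ensembl ENSG00000172238). In HT29 it had only 8, 11 and 5 counts (0.274, 0.378 and 0.274 CPM) in the 2D libraries and was at 5.88, 4.70 and 6.60 CPM in the 3D libraries. The groups did not overlap, and the level rose 18.1-fold (log2 fold change 4.18, SE 0.28, edgeR adjusted p = 3.7e-10). LS174T gave 3.53, 5.63 and 3.91 CPM in 2D and 11.8, 13.3 and 15.5 CPM in 3D, again without overlap, a rise of 3.10-fold (log2 fold change 1.63, SE 0.19, edgeR adjusted p = 2.5e-06). In contrast, LS513 was at 8.33, 9.73 and 12.2 CPM in 2D and at 6.13, 7.28 and 8.49 CPM in 3D, where the groups overlapped and the log2 fold change of -0.47 (SE 0.19) was not called (edgeR adjusted p = 0.074). It was called without LS513 3D replicate 3 (log2 fold change -0.59, edgeR adjusted p = 0.041). HCT116 held 2 to 6 counts per library in both growth conditions.

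The order of ATOH1 levels differed between growth conditions. In 2D it was LS513 (10.1 ± 1.97 CPM; mean ± SD, n = 3, here and in all such values), LS174T (4.36 ± 1.12 CPM), HT29 (0.309 ± 0.0603 CPM) and HCT116 (0.143 ± 0.0432 CPM), and each line differed from the next (largest edgeR adjusted p = 0.033, between HT29 and HCT116). In 3D the order was LS174T (13.5 ± 1.88 CPM), LS513 (7.30 ± 1.18 CPM), HT29 (5.73 ± 0.959 CPM) and HCT116 (0.132 ± 0.0566 CPM). The difference between LS513 and HT29 in 3D did not pass the threshold (1.27-fold, SE 0.19 on the log2 scale, edgeR adjusted p = 0.12).

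SPDEF, an ETS-family factor of secretory cell maturation, lies on chr6:34537802-34556333 (minus strand; ENSG00000124664). LS174T held 1.41, 3.27 and 2.67 CPM in 2D and 15, 21.7 and 14.1 CPM in 3D, a rise of 6.89-fold with no overlap (log2 fold change 2.78, SE 0.24, edgeR adjusted p = 2.5e-08). LS513 held 16.2, 20.1 and 23.7 CPM in 2D and 50.3, 46.0 and 36.4 CPM in 3D, a rise of 2.21-fold with no overlap (log2 fold change 1.15, SE 0.21, edgeR adjusted p = 2.7e-04). HT29 had the highest 2D level of the 4 lines, at 44.6, 49.3 and 45.0 CPM, and 65.2, 47.7 and 65.5 CPM in 3D. The HT29 groups overlapped and the log2 fold change of 0.36 (SE 0.20) was not called (edgeR adjusted p = 0.16), although it was called in a fit of the 6 HT29 libraries alone (0.37, edgeR adjusted p = 0.025) and with all genes of at least 1 count (0.41, edgeR adjusted p = 0.020). In HCT116, SPDEF had 2 to 8 counts per library.

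HT29 and LS513 differed in SPDEF level in 2D, by 2.32-fold (SE 0.21 on the log2 scale, edgeR adjusted p = 1.9e-05), and in 3D by 1.34-fold, which did not pass the threshold (SE 0.20 on the log2 scale, edgeR adjusted p = 0.071). Both factors rose in LS174T, ATOH1 in HT29 and SPDEF in LS513. The growth effect on SPDEF did not differ past the threshold between HT29 and LS513 (difference -0.79, SE 0.29, edgeR adjusted p = 0.079), and that on ATOH1 differed, as given below.

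TFF3 is the trefoil peptide of intestinal goblet cells and lies on chr21:42311667-42315651 (minus strand; ENSG00000160180). In HT29 it had 15, 48 and 14 counts (0.514, 1.65 and 0.767 CPM) in 2D and 10.5, 8.58 and 11.3 CPM in 3D, with no overlap, a rise of 10.1-fold (log2 fold change 3.33, SE 0.34, edgeR adjusted p = 2.6e-07). LS174T went from 56.7, 47.9 and 47.3 CPM to 223, 357 and 179 CPM, also without overlap, a rise of 4.99-fold (log2 fold change 2.32, SE 0.23, edgeR adjusted p = 7.6e-07). LS513, whose 2D level was the highest of the 4 lines, held 712, 754 and 697 CPM in 2D and 1054, 1071 and 650 CPM in 3D, where replicate 3 was below all 2D libraries and the log2 fold change of 0.36 (SE 0.22) was not called (edgeR adjusted p = 0.26), although it was called when all genes of at least 1 count were tested (0.36, edgeR adjusted p = 0.018). HCT116 had 1 count, in 1 library of 2D.

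TFF1 and TFF2, the trefoil peptides best known from the stomach, had other calls than TFF3. TFF1 (chr21:42362282-42366594, minus strand; ENSG00000160182) was at 10.4, 12.2 and 6.46 CPM in HT29 2D and at 0.995, 0.934 and 1.2 CPM in HT29 3D. It fell 9.39-fold with no overlap between groups (log2 fold change -3.23, SE 0.34, edgeR adjusted p = 7.3e-07). In LS513 it went the other way, from 39.4, 38.8 and 30.1 CPM to 83.7, 91 and 49.4 CPM, a rise of 2.07-fold with no overlap (log2 fold change 1.05, SE 0.25, edgeR adjusted p = 0.0051). LS174T overlapped, with 23.8, 15.5 and 19.2 CPM in 2D and 12.7, 20.7 and 9.98 CPM in 3D (log2 fold change -0.44, edgeR adjusted p = 0.24). HCT116 had 0 counts of TFF1 in all 6 libraries, where a level up to the detection limit of 3 counts could have been missed.

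TFF2 (chr21:42346357-42351128, minus strand; ENSG00000160181) was low and was called in no line. It ranged from 3.85 to 6.31 CPM in HT29 2D and from 3.62 to 3.77 CPM in HT29 3D, so that all 3D libraries lay below all 2D libraries, but the log2 fold change of -0.47 (SE 0.35) did not pass (edgeR adjusted p = 0.29). In LS513 it was 1.65 to 3.05 CPM in 2D and 1.63 to 3.37 CPM in 3D, and in LS174T 3.30 to 6.76 CPM and 3.44 to 9.66 CPM. HCT116 had 2 counts in 1 library of 3D and 0 in the other libraries.

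FCGBP, a large mucus protein that binds the Fc part of IgG, lies on chr19:39863323-39934626 (minus strand; ENSG00000275395). Of the 75-base words in its longest transcript, 45.66% occur more than 1 time within the transcript, and none of them in another gene. LS174T rose 5.68-fold, from 25.8, 40.2 and 37.1 CPM in 2D to 158, 292 and 136 CPM in 3D, with no overlap (log2 fold change 2.50, SE 0.27, edgeR adjusted p = 1.1e-06). In HT29 the counts were 10, 28 and 11 in 2D and 53, 42 and 57 in 3D, which is 0.343 to 0.963 CPM against 1.45 to 2.07 CPM. The groups did not overlap and the rise of 2.65-fold was called (log2 fold change 1.40, SE 0.48, edgeR adjusted p = 0.025), but not without 2D replicate 1 (1.10, edgeR adjusted p = 0.108) or without 3D replicate 4 (1.29, edgeR adjusted p = 0.066).

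LS513 held FCGBP at 106, 102 and 107 CPM in 2D and at 95.1, 97.4 and 62.9 CPM in 3D. All 3D libraries were below all 2D libraries, and the log2 fold change of -0.31 (SE 0.26) was not called (edgeR adjusted p = 0.44). FCGBP was the one member well above the detection limit in HCT116, with 5.59, 5.12 and 5.81 CPM in 2D and 8.74, 10.2 and 4.41 CPM in 3D. Those groups overlapped because 3D replicate 3 was the lowest of the 6, and the log2 fold change of 0.50 (SE 0.29, edgeR adjusted p = 0.21) became 0.76 (edgeR adjusted p = 0.047) without it.

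AGR2, the protein disulfide isomerase of the endoplasmic reticulum that mucins need to fold, lies on chr7:16791811-16833433 (minus strand; ENSG00000106541) and rose in HT29, LS513 and LS174T. In HT29 it was at 83.3, 91.8 and 84.0 CPM in 2D and at 329, 325 and 332 CPM in 3D, a rise of 3.80-fold (log2 fold change 1.93, SE 0.19, edgeR adjusted p = 8.4e-08). In LS513 it went from 745, 718 and 974 CPM to 1429, 1594 and 1083 CPM, or 1.69-fold (log2 fold change 0.75, SE 0.18, edgeR adjusted p = 0.0043). In LS174T it went from 642, 780 and 714 CPM to 1641, 2270 and 1291 CPM, or 2.44-fold (log2 fold change 1.28, SE 0.19, edgeR adjusted p = 4.1e-05). The 2D and 3D libraries did not overlap in any of the 3 lines. The difference between LS513 and LS174T did not pass the threshold in 2D (1.14-fold, edgeR adjusted p = 0.39) or in 3D (1.27-fold, edgeR adjusted p = 0.11). HCT116 had 0 to 4 counts per library.

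SPINK4, a secreted Kazal-type protease inhibitor of goblet cells, lies on chr9:33218365-33248567 (plus strand; ENSG00000122711). In HT29 2D it had 2, 11 and 1 counts, so that 2 of 3 libraries were within the detection limit, and in HT29 3D it had 116, 88 and 127 counts (3.50, 3.04 and 4.61 CPM). The groups did not overlap and the log2 fold change was 4.32 (SE 0.56, edgeR adjusted p = 7.3e-06). In LS174T it rose 6.94-fold, from 6.16, 9.13 and 8.29 CPM to 48.0, 81.4 and 34.7 CPM, with no overlap (log2 fold change 2.80, SE 0.28, edgeR adjusted p = 1.1e-06). LS513 held 227, 162 and 249 CPM in 2D and 269, 265 and 169 CPM in 3D, which overlapped (log2 fold change 0.14, edgeR adjusted p = 0.77). HCT116 had 1 count in 1 library.

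HT29 2D replicate 2 was the highest of its group in 9 of the 10 members, all but TFF2. Without this library the HT29 log2 fold changes were 4.06 for TFF3, 5.82 for SPINK4 and 2.97 for REG4.

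REG4, a secreted C-type lectin-like protein, lies on chr1:119794018-119811660 (minus strand; ENSG00000134193). In HT29 it had 10, 36 and 6 counts in 2D (0.343, 1.24 and 0.329 CPM) and 77, 75 and 82 counts in 3D (2.32, 2.59 and 2.97 CPM), a rise of 3.87-fold with no overlap (log2 fold change 1.95, SE 0.48, edgeR adjusted p = 0.0027). LS513 held the most, with 759, 642 and 499 CPM in 2D and 683, 672 and 482 CPM in 3D, and LS174T held 236, 104 and 128 CPM in 2D and 115, 158 and 87.3 CPM in 3D. Both lines overlapped between growth conditions and were not called (log2 fold changes -0.05 and -0.38), and the sign turned on leaving out single libraries. HCT116 had 1 to 5 counts per library.

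TCN1, the secreted vitamin B12 carrier haptocorrin, lies on chr11:59852800-59866575 (minus strand; ENSG00000134827) and fell where it was called. HT29 had 8.40, 13.1 and 9.26 CPM in 2D and 4.8, 4.08 and 5.33 CPM in 3D, a fall of 2.17-fold with no overlap (log2 fold change -1.12, SE 0.28, edgeR adjusted p = 0.0029). LS174T had 50, 48 and 39 counts in 2D (1.5, 1.36 and 1.16 CPM) and 3, 5 and 5 counts in 3D, with no overlap and a log2 fold change of -3.21 (SE 0.47, edgeR adjusted p = 4.1e-05). LS513 had 1 to 6 counts per library and HCT116 1 to 14. The HCT116 log2 fold change of 1.26 (edgeR adjusted p = 0.12) was 2.62 without 2D replicate 3 (edgeR adjusted p = 0.0083), which held 9 of the 12 counts in 2D.

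Counted together, 6 of the 10 members rose and 2 fell in HT29, against 21.1% and 19.6% of all 19387 genes. The members and the lists below were chosen with earlier results of these data known. Shares of all genes set beside them, here and below, are therefore a description and not a test. The members that rose were ATOH1, TFF3, SPINK4, AGR2, FCGBP and REG4, and those that fell were TFF1 and TCN1. In LS174T 6 members rose, against 13.1% of all genes, and 1 fell, against 9.15%. All 3D libraries lay above all 2D libraries for 6 members in HT29 and 6 in LS174T, against 27.3% and 20.9% of all genes, and below them for 3 and 1, against 25.6% and 17.6%. ATOH1, TFF3, SPINK4, AGR2 and FCGBP rose in both lines, with SPDEF in place of REG4 in LS174T. In LS513 TFF1, AGR2 and SPDEF rose, against 13.7% of all genes, and 0 fell by edgeR, against 9.9%. The libraries were apart with 3D higher for 3 members of LS513, against 23% of all genes, and with 3D lower for 1, FCGBP, against 20%. One member of LS513, ATOH1, was lower at an unadjusted p under 0.05, and DESeq2 also called 0 lower. In HCT116 edgeR and DESeq2 each called 0 members in either direction, against 16.8% of all genes higher and 12.3% lower. The libraries of every member overlapped there, where those of 22.8% of all genes were apart with 3D higher and 17.6% with 3D lower. In HCT116 1 member, TCN1, was higher at an unadjusted p under 0.05. All members but FCGBP and TCN1 had at most 10 counts in every HCT116 library, so a change in them could hardly be called. The 0 calls in HCT116 therefore do not show a lack of response.

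The median log2 fold change of the 10 members was 1.67 in HT29, 1.46 in LS174T and 0.22 in LS513, and the median of all tested genes was 1.7e-04, 0.016 and 0. No median is given for HCT116, where 8 members had at most 10 counts in every library. Within groups, single libraries were the highest or lowest in most members. HT29 3D replicate 4 was the highest of its group in 9 of the 10 members, all but TFF2, and without it 5 were called higher, FCGBP being lost, and 2 lower. HT29 3D replicate 3 was the lowest of its group in 8 members, all but TFF2 and REG4, and without it 6 were called higher and 2 lower. LS174T 3D replicate 2 was the highest of its group in 9 of the 10 members, all but ATOH1, and without it 6 members were called higher, with log2 fold changes from 1.05 for AGR2 to 2.58 for SPDEF, and 1 was called lower. LS174T 3D replicate 3 was the lowest of its group in 8 members, all but ATOH1 and TCN1, and without it 6 were called higher and 1 lower. LS513 3D replicate 3 was the lowest of its group in 8 members, all but ATOH1 and TCN1, and without it 3 members were called higher and 1, ATOH1, lower.

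**Figure D2:**
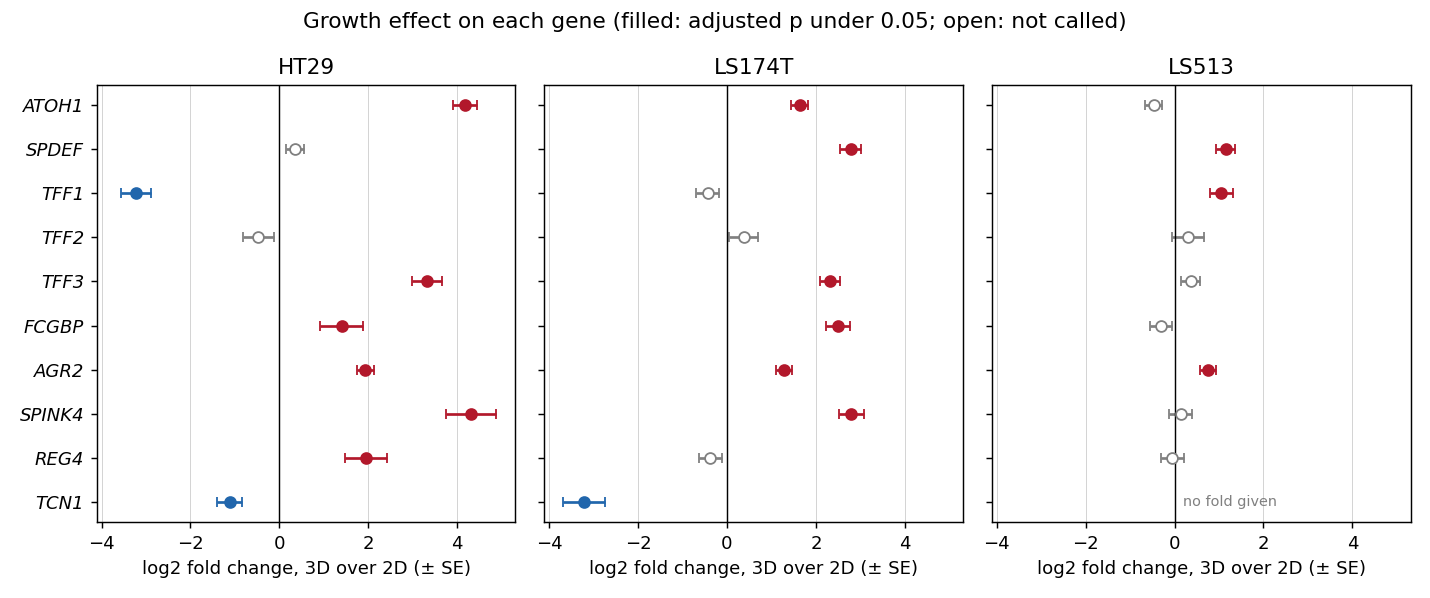
Log2 fold change of 3D over 2D with its SE for each gene in HT29, LS174T and LS513; filled red points were called higher, filled blue points lower, and open points were not called. ATOH1 lay at 4.18 in HT29, 1.63 in LS174T and -0.47 in LS513, and TFF1 at -3.23, -0.44 and 1.05.

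The growth effect was next compared between lines, by the interaction of line and growth. It differed between the 4 lines for 9 of the 10 members, all but TFF2 (edgeR adjusted p = 0.41), against 17.1% of all genes. Without HCT116, in a comparison added after the data were seen, the same 9 were called, against 13.7% of all genes. Between pairs of lines, 24 of the 60 member comparisons were called, against 6.53% of all such comparisons.

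Between HT29 and LS513 the effect on ATOH1 was 4.64 log2 units higher in HT29 (SE 0.34, edgeR adjusted p = 6.4e-09) and that on TFF1 4.28 lower (the difference, HT29 minus LS513, was -4.28, SE 0.42, edgeR adjusted p = 1.5e-06). TFF3 and SPINK4 also differed, by 2.97 and 4.18 log2 units (edgeR adjusted p = 3.7e-05 and 1.5e-04). Between HT29 and LS174T the effect on ATOH1 was 2.54 log2 units higher in HT29 (SE 0.35, edgeR adjusted p = 6.0e-05), and that on SPDEF was lower in HT29 (difference -2.42, SE 0.31, edgeR adjusted p = 2.5e-05). For TFF3, SPINK4, AGR2 and FCGBP the difference between HT29 and LS174T did not pass the threshold, with values of 1.01 (SE 0.42), 1.52 (SE 0.73), 0.64 (SE 0.26) and -1.10 (SE 0.59) log2 units. Between LS513 and LS174T the effects on FCGBP (difference -2.81, SE 0.37), SPINK4 (-2.66, SE 0.38), ATOH1 (-2.10, SE 0.27) and TFF3 (-1.96, SE 0.32) were all lower in LS513 (largest edgeR adjusted p = 6.5e-04).

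**Figure D3:**
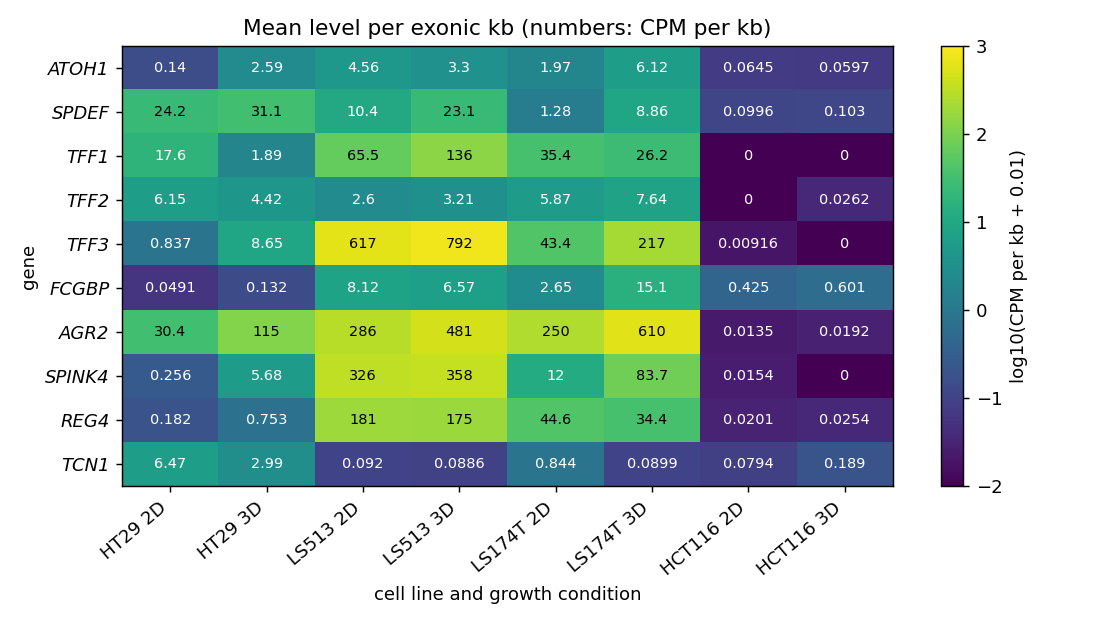
Mean CPM per kb of exonic length for each gene (rows) in each line and growth condition (columns); colour is log10 of CPM per kb with 0.01 added and the numbers are CPM per kb. AGR2 was the highest member per kb in HT29 and LS174T, at 115 and 610 CPM per kb in 3D, TFF3 in LS513, at 792, and FCGBP in HCT116, at 0.601.

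Levels of different genes were compared per kb of exonic length. FCGBP may be too low on this scale, since reads from repeats within its transcript could have been left out. On this scale AGR2 was the highest member in HT29, at 30.4 CPM per kb in 2D and 115 in 3D, followed by SPDEF at 24.2 and 31.1. In LS513 TFF3 led with 617 CPM per kb in 2D and 792 in 3D, ahead of SPINK4 and AGR2 in 2D (326 and 286). The order of these next genes depended on the length used. Per kb of the longest transcript, LS513 2D had TFF3 at 650, AGR2 at 457 and SPINK4 at 399 CPM. LS174T was led by AGR2 (250 CPM per kb in 2D and 610 in 3D), and the next was REG4 in 2D (44.6) and TFF3 in 3D (217). ATOH1 stayed at or below 6.12 CPM per kb in all groups.

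Between lines, 56 of 60 member comparisons of level were called in 2D, against 64.7% of all such comparisons, and 53 of 60 in 3D, against 65.4%. LS513 had the highest 2D level of TFF1, TFF3, SPINK4, FCGBP, REG4 and ATOH1. It had the highest mean of AGR2 as well in 2D, but did not differ there from LS174T. HT29 had the highest TCN1 level in both growth conditions, 10.3 ± 2.53 CPM in 2D and 4.74 ± 0.628 CPM in 3D, and the next was 7.66-fold lower in 2D (LS174T, edgeR adjusted p = 1.3e-08). FCGBP was higher in HCT116 than in HT29 in both growth conditions, by 8.55-fold in 2D and 4.57-fold in 3D (edgeR adjusted p = 8.0e-07 and 5.0e-06), and for the other 9 members HCT116 had either the lowest mean of the 4 lines or, for TCN1 in 3D, a level that did not differ from the next. Besides AGR2 between LS174T and LS513 in both growth conditions, and ATOH1 and SPDEF between HT29 and LS513 in 3D, the neighbours in the order that did not pass the threshold were HT29 and LS174T for TFF2 in 2D, HT29 and LS513 for TFF2 in 3D, HT29 and HCT116 for SPINK4 in 2D (edgeR adjusted p = 0.060), LS513 and HCT116 for TCN1 in 2D, and LS174T and LS513 for TCN1 in 3D.

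For each member the tested genes with the most similar pattern were sought, as the smallest root mean square (RMS) difference over the 8 group means of log2(CPM + 1) after centring. These values are a description over 8 groups that share lines. The closest to REG4 was CDX1, an intestinal homeobox factor (RMS difference 0.36 log2 units, against a spread of REG4 itself of 3.85), followed by the intestinal cadherin CDH17 (0.60). The same 2 genes were the closest to TFF3 (0.78 and 0.85). SPINK4 was nearest to the brush border myosins MYO7B (0.64) and MYO1A (0.67), AGR2 to LGALS4 (0.97), a galectin of the intestinal epithelium, and FCGBP to BDKRB2 (0.67) and CDX2 (0.68), the other intestinal CDX factor. TCN1 was nearest to the chloride channel gene ANO1 (0.28), SPDEF to CYP3A5 (0.52), ATOH1 to TAPBPL (0.44) and TFF1 to PIP5K1B (0.71). Among members the most similar pair was TFF3 and REG4 (0.86), and TCN1 and REG4 were the most unlike (4.5).

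Other goblet cell genes were listed by hand, 27 in number, of which 23 were tested. In HT29 16 of the 23 rose and 1 fell, and in LS174T 17 rose and 0 fell by edgeR (1 by DESeq2 and 1 at an unadjusted p under 0.05), against the shares of all genes given above. In LS513 6 rose and 1 fell, and in HCT116 7 rose and 0 fell by edgeR (0 by DESeq2 and 1 at an unadjusted p under 0.05). The median log2 fold changes were 1.19 in HT29, 0.93 in LS174T, 0.08 in LS513 and 0.84 in HCT116, where 11 of the listed genes were within the detection limit in every library.

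Among listed genes that reached 1 CPM in the group with more and whose libraries were apart, the largest increase in HT29 was that of NEURL1, an E3 ubiquitin ligase, which had 1, 10 and 4 counts in 2D and 265, 148 and 176 counts in 3D (log2 fold change 5.02, SE 0.38, edgeR adjusted p = 1.9e-09). In LS174T it was WFDC2, a secreted protease inhibitor, at 3.23, 4.81 and 3.67 CPM in 2D and 21.4, 33.0 and 18.3 CPM in 3D (log2 fold change 2.63, SE 0.21, edgeR adjusted p = 2.3e-08). In LS513 it was GCNT3, which builds core structures of mucin glycans, at 23.3, 17.5 and 26.5 CPM in 2D and 128, 148 and 111 CPM in 3D (log2 fold change 2.52, SE 0.15, edgeR adjusted p = 1.7e-10). ZG16, below this limit, was also called in LS513, with 0 counts in 2D and at most 12 in a 3D library. In HCT116 BCAS1 rose from 0.123 ± 0.0569 to 1.39 ± 0.740 CPM (log2 fold change 3.47, edgeR adjusted p = 3.5e-05). The decreases were CAPN8, a digestive tract calpain, in HT29 (89.0 ± 13.5 to 41.7 ± 16.8 CPM, log2 fold change -1.10) and LRRC26 in LS513 (2.58 ± 0.316 to 1.33 ± 0.0949 CPM, log2 fold change -0.95), whose call was lost on leaving out any of 5 libraries in turn (edgeR adjusted p up to 0.107) and with a replicate block (-0.95, edgeR adjusted p = 0.053). KLF4, a transcription factor of goblet cell differentiation, rose in all 4 lines, by log2 fold changes of 1.24 in HT29, 1.14 in LS174T, 1.22 in LS513 and 1.46 in HCT116 (largest edgeR adjusted p = 4.0e-05). KLF4, HES1, NOTCH1, CDX2, MUC5AC, CHGA, TPH1, ZG16 and the HT29 and LS513 values of MUC2 were chosen after their values were seen. So were OLFM4 and LGR5, although both also met the naming rule in LS174T.

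Of the 12 mucins, 6 rose and 0 fell in HT29, 5 rose and 1 fell in LS513, 3 rose and 1 fell in LS174T, and 4 rose and 0 fell in HCT116. The share of the mucins called higher was 50% in HT29, 41.7% in LS513, 25% in LS174T and 33.3% in HCT116, beside 21.1%, 13.7%, 13.1% and 16.8% of all genes. No mucin was lower in HT29 or HCT116 by DESeq2 or at an unadjusted p under 0.05 by edgeR. MUC2, the gel-forming mucin of the colon, was at 60.9, 40.7 and 51.1 CPM in LS174T 2D and at 140, 213 and 89.1 CPM in LS174T 3D (log2 fold change 1.53, SE 0.37, edgeR adjusted p = 0.0058). Its call was lost without 3D replicate 2, the library that was highest in 9 members (1.18, edgeR adjusted p = 0.066). In HT29 MUC2 rose from 0.675 ± 0.478 to 2.48 ± 0.858 CPM (edgeR adjusted p = 0.019), and in LS513 it was 10.8 ± 6.94 CPM in 2D and 21.3 ± 5.36 CPM in 3D, not called (edgeR adjusted p = 0.067). MUC5AC, a gastric gel-forming mucin, fell in LS174T (137 ± 35.1 to 75.4 ± 23.3 CPM, log2 fold change -0.86, edgeR adjusted p = 0.010), with overlap between the groups. The largest rise elsewhere was that of the membrane mucins MUC1 in HT29 (3.67 ± 1.57 to 16.9 ± 5.22 CPM, log2 fold change 2.24), MUC17 in LS513 (5.93 ± 2.52 to 47.4 ± 19.0 CPM, log2 fold change 3.00) and MUC20 in HCT116 (0.722 ± 0.154 to 3.18 ± 1.74 CPM, log2 fold change 2.14), and the gastric mucin MUC6 fell in LS513 (93.7 ± 27.0 to 42.0 ± 8.11 CPM, log2 fold change -1.16).

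**Figure D4:**
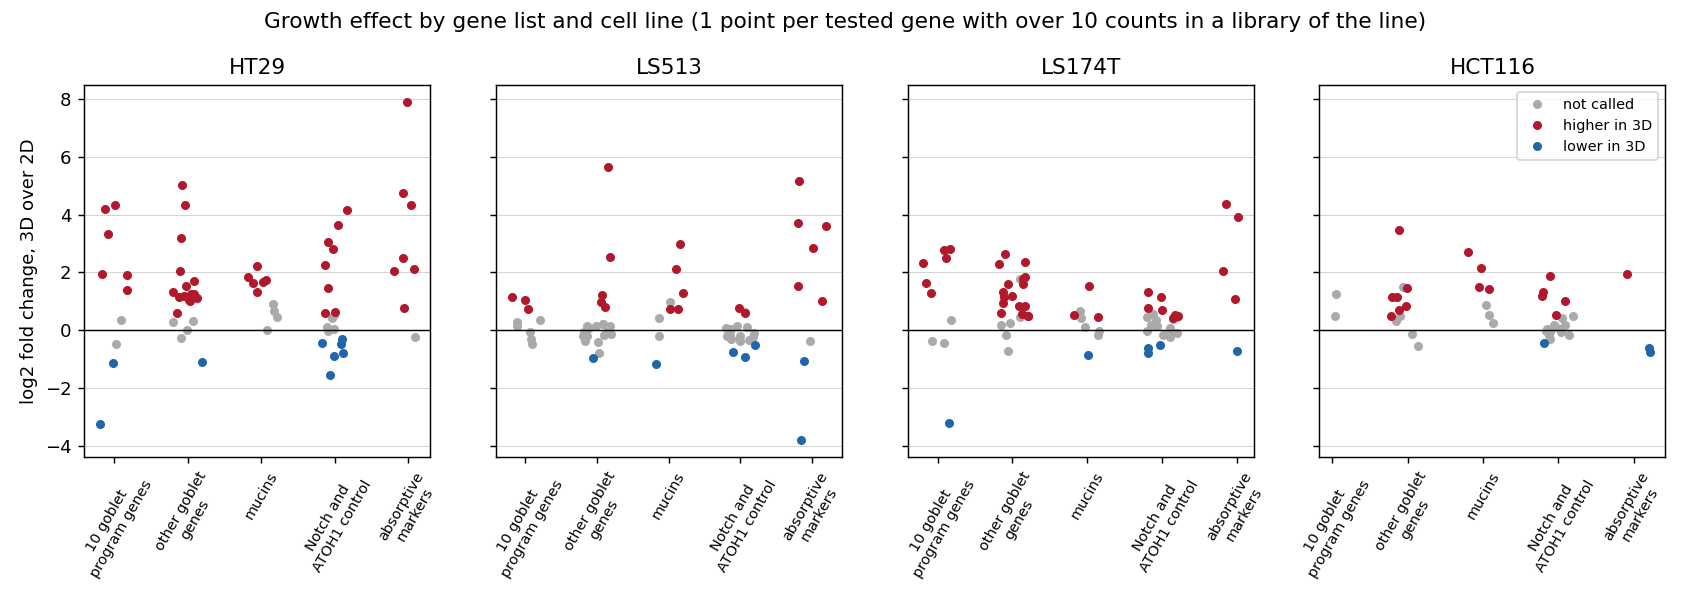
Log2 fold change of 3D over 2D for single genes of 5 lists in each line; each point is a tested gene with over 10 counts in a library of that line, red called higher, blue called lower and grey not called. In HT29 and LS174T most of the other goblet genes lay above 0 (16 and 17 of 23 called higher), and in LS513 6 were called higher.

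ATOH1 is held down by Notch signalling, so 24 genes of the Notch pathway and of intestinal lineage control were listed. In HT29 8 rose and 6 fell, in LS174T 7 rose and 3 fell, in LS513 2 rose and 3 fell, and in HCT116 5 rose and 1 fell. In HT29 this was 33.3% higher and 25% lower, beside 21.1% and 19.6% of all genes, and in LS174T 29.2% and 12.5%, beside 13.1% and 9.15%. LS513, at 8.33% and 12.5% beside 13.7% and 9.9%, and HCT116, at 20.8% and 4.17% beside 16.8% and 12.3%, were near or below the shares of all genes. DLL4, a Notch ligand, was at 0.171, 0.688 and 0.438 CPM in HT29 2D and at 7.09, 4.11 and 5.19 CPM in HT29 3D (log2 fold change 3.65, SE 0.30, edgeR adjusted p = 7.3e-09). In LS513, where ATOH1 was not called, DLL4 was at 23.7, 28.6 and 20.9 CPM in 2D and at 14.5, 9.77 and 14.7 CPM in 3D (log2 fold change -0.91, SE 0.19, edgeR adjusted p = 0.0013). JAG1, another ligand, fell in HT29, from 39.5, 40.1 and 33.1 CPM to 9.68, 14.7 and 14.0 CPM (log2 fold change -1.56, SE 0.16, edgeR adjusted p = 2.0e-07), and in LS174T, from 107, 84.4 and 90.4 CPM to 54.8, 48.8 and 60.2 CPM (log2 fold change -0.78, SE 0.16, edgeR adjusted p = 0.0011). None of these groups overlapped.

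The receptor NOTCH1 fell in HT29, LS513 and LS174T, by log2 fold changes of -0.44, -0.74 and -0.52, and was not called in HCT116 (0.17). HES1, a Notch target that represses ATOH1, was called in no line, with log2 fold changes from 0.03 to 0.15. CDX2 rose in HT29 (1.43 ± 0.404 to 6.72 ± 1.13 CPM), LS513 (154 ± 12.7 to 233 ± 19.4 CPM) and LS174T (76.2 ± 2.12 to 131 ± 5.0 CPM), with log2 fold changes of 2.25, 0.60 and 0.79. The other genes named by the rule were HNF4A, higher in LS513 (log2 fold change 0.77), ID1, higher in LS174T (1.31), ID2, higher in HCT116 (1.87), and NRARP, a Notch target, lower in HCT116 (-0.45, not called in a fit of the 6 HCT116 libraries alone or without 2D replicate 3, edgeR adjusted p = 0.074 and 0.058). NRARP was at 26.8, 25.5 and 22.6 CPM in LS174T 2D and at 36.4, 31.5 and 33.2 CPM in LS174T 3D. In LS513 it was at 12.2, 13.4 and 13.8 CPM in 2D and at 10.5, 11.2 and 11.5 CPM in 3D, and in HT29 the groups overlapped. These NRARP values outside HCT116 were chosen after they were seen.

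Markers of other intestinal cell types were counted in the same comparisons. NEUROG3, the factor of enteroendocrine progenitors that acts after ATOH1, had 3, 6 and 0 counts in HT29 2D and 167, 53 and 97 counts in HT29 3D (log2 fold change 4.85, SE 0.62, edgeR adjusted p = 6.9e-06). In LS174T it was at 0.658, 1.62 and 1.63 CPM in 2D and at 3.07, 3.83 and 3.84 CPM in 3D (log2 fold change 1.45, SE 0.42, edgeR adjusted p = 0.020), a call lost without 2D replicate 1 or 3D replicate 2 (edgeR adjusted p = 0.098 and 0.066). Of the 11 enteroendocrine markers 6 were tested. By edgeR 4 rose in HT29, 2 in LS174T and 0 in LS513 (0 by DESeq2 and 0 at an unadjusted p under 0.05). DESeq2 called 3 in HT29 and 1 in LS174T. The edgeR counts were 66.7%, 33.3% and 0% of the tested markers, beside 21.1%, 13.1% and 13.7% of all genes. Of the 11 markers, 5 were within the detection limit in every library of HT29 and 5 in LS174T. In LS513 and in HCT116 this held for 8, so few could be called there. In HCT116 TPH1, which encodes a serotonin-making enzyme, was lower by edgeR (0.963 to 0.441 CPM, log2 fold change -1.12, edgeR adjusted p = 0.026) and DESeq2 called 0 lower. Their summed level stayed low, at 0.219 to 1.34 CPM in HT29 2D and 5.88 to 9.98 CPM in HT29 3D, and CHGA, which defines mature enteroendocrine cells, had at most 2 counts in any library.

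Of 9 absorptive markers tested, 7 rose in HT29, 6 in LS513, 4 in LS174T and 1 in HCT116. In the same lines 0 (also by DESeq2 and at an unadjusted p under 0.05), 2, 1 and 2 were lower. The 77.8%, 66.7% and 44.4% higher in HT29, LS513 and LS174T stood beside 21.1%, 13.7% and 13.1% of all genes. In HCT116 11.1% were higher and 22.2% lower, beside 16.8% and 12.3% of all genes. The 22.2% lower in LS513 and 11.1% in LS174T stood beside 9.9% and 9.15%. In HT29 the summed CPM of the absorptive markers ranged between 369 and 540 in 2D and between 814 and 948 in 3D. In LS513 it ranged between 689 and 909 in 2D and between 3041 and 4101 in 3D, and in LS174T between 66.1 and 69.5 in 2D and between 213 and 270 in 3D. The HCT116 sum went the other way, with 104 to 115 CPM in 2D and 61.9 to 76.1 CPM in 3D. Of the 14 listed markers 10 were within the detection limit in every HCT116 library. CA2 was the highest there and went from 85.3 ± 1.09 to 50.4 ± 7.29 CPM, whereas KRT20 rose from 0.646 ± 0.0372 to 2.50 ± 0.412 CPM. In LS513 and in LS174T the highest marker was FABP1. CEACAM7 had the largest rise in HT29, from 3.09, 1.72 and 3.45 CPM to 61.3, 75.6 and 80.2 CPM (log2 fold change 4.74, SE 0.29, edgeR adjusted p = 1.1e-09), and FABP1, a fatty acid binding protein, in LS174T, from 3.29, 6.43 and 9.03 CPM to 116, 129 and 139 CPM (log2 fold change 4.36, SE 0.26, edgeR adjusted p = 9.5e-09). Of 7 Paneth markers tested, 2 rose and 1 fell in HT29, 3 rose and 1 fell in LS174T, and 1 rose in each of LS513 and HCT116. The 28.6% higher in HT29 and 14.3% higher in LS513 and in HCT116 were near the shares of all genes, and the 42.9% in LS174T was above the 13.1% of all genes. DEFA5, a Paneth cell defensin, had 11, 1 and 4 counts in LS174T 2D and 218, 642 and 290 counts in LS174T 3D (log2 fold change 6.33, edgeR adjusted p = 8.7e-06). PLA2G2A, the highest Paneth marker in LS174T, fell there from 41.7 ± 8.24 to 26.0 ± 4.97 CPM (log2 fold change -0.68, edgeR adjusted p = 0.033). This call was lost under 4 of 12 alternatives. The largest rises elsewhere were PRSS2 in HT29 (log2 fold change 2.33), LYZ in LS513 (1.05) and MMP7 in HCT116 (2.36), and MMP7 fell in HT29 (-1.82).

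Of 5 tuft markers tested, 3 rose in HT29, 3 in LS513, 2 in LS174T and 2 in HCT116. Of 7 stem markers, 2 rose and 2 fell in HT29, 1 rose and 2 fell in LS174T, 5 fell in LS513 and 1 fell in HCT116. The stem marker that rose in LS174T was OLFM4, from 75.2 ± 31.6 to 291 ± 55.2 CPM (log2 fold change 1.95, SE 0.45, edgeR adjusted p = 0.0086). DESeq2 called 1 lower in HT29, 1 higher in HCT116 and 0 higher in LS174T, where OLFM4 was at an adjusted p of 0.138 by DESeq2. LGR5 fell in LS174T (log2 fold change -0.85, edgeR adjusted p = 0.0088), a call lost in a fit of the 6 LS174T libraries alone and without 3D replicate 2 (edgeR adjusted p = 0.078 and 0.054). Of the 7 epithelial markers 2 rose and 1 fell in HT29, and 2 rose in LS174T, 4 in LS513 and 2 in HCT116, with KRT19 called higher in all 4 lines. Of 5 stromal and immune markers tested 1 rose in HT29, 1 in LS174T, 2 in LS513 and 2 in HCT116, CD68 among them each time, where DESeq2 called 1 in each line. The tuft markers called higher were 60% in HT29 and LS513 and 40% in LS174T and HCT116, and the stem markers called lower 71.4% in LS513, above the shares of all genes. The epithelial markers called higher were 28.6% in HT29, LS174T and HCT116 and 57.1% in LS513, beside 21.1%, 13.1%, 16.8% and 13.7% of all genes, and in lists of 5 to 7 genes a count of 1 or 2 says little against such shares. The part of these other lineages in the changes of the goblet genes was not tested.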

How the data were processed

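RNA from 4 CRC cell lines in 2D and 3D was sequenced (75-base single reads, stranded poly(A) libraries). The authors trimmed reads with Trim Galore 0.4.1, aligned them with STAR, removed reads that aligned more than once, counted reads on exons with HTSeq-count 0.5.3 and the Ensembl 91 annotation, and deposited raw counts per gene without normalization. The submitters' notes name hg19, but 99.55% of the gene identifiers were found in GENCODE 29 on GRCh38, from which positions and lengths were taken. Each library was deposited as 8 technical replicates, which were summed (7 for HT29 3D replicate 4). Multi-mapping reads were left out, so that sequence shared with other genes could lower a count, but none of the members' 75-base words was shared with another gene. In FCGBP 45.66% of these words occur more than 1 time within its own transcript. Reads from such repeats could have been left out too, so its counts may be too low.

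Counts were fitted in R 4.3.3 with edgeR 4.0.16 (filterByExpr, TMM, robust quasi-likelihood fit of 24 libraries in 8 groups, Benjamini-Hochberg adjustment). SE is the log2 fold change divided by the square root of F. No fold is given where all libraries of a line had at most 10 counts. Groups and replicate numbers came from the labels. Alternatives were DESeq2 1.42.0, DESeq2 size factors, all genes with at least 1 count, the 6 libraries of a line alone, a replicate block, the study's size cutoffs with an adjusted or an unadjusted p, leaving out technical replicate d, and leaving out each library in turn. The fit was tested on simulated data with known changes. The members and lists were chosen with earlier results of these data known. List genes were picked by a rule: in each line, the called genes with the largest increase and decrease, provided that the group with more reached 1 CPM and the libraries were apart. For the absorptive, tuft, stem and epithelial lists not every gene picked by the rule is named, so the genes named there are a choice. For patterns, a pseudocount of 1 was used, and the 2 nearest genes with at least 1 CPM in some group were taken.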

Additional observations from a re-analysis of the deposited data

Results flagged for a closer look

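The effect of 3D growth differed between the 4 lines for 9 of the 10 genes by the interaction test of edgeR, with adjusted p-values of 2.3e-08 for ATOH1, 8.2e-06 for TFF1, 3.4e-05 for SPDEF, 4.7e-05 for SPINK4, 5.9e-05 for TFF3, 6.1e-05 for FCGBP, 0.0010 for TCN1, 0.016 for AGR2 and 0.026 for REG4. ATOH1 rose in HT29 and LS174T and had a log2 fold change of -0.47 in LS513, and TFF1 fell in HT29 (-3.23) and rose in LS513 (1.05). TFF3, SPINK4 and FCGBP rose in HT29 and LS174T and were not called in LS513, and SPDEF rose in LS513 and LS174T. In HCT116 all but FCGBP and TCN1 had at most 10 counts per library, so the test there rests on the other lines. With HT29, LS513 and LS174T alone the adjusted p-values by edgeR were 2.1e-08 for ATOH1, 5.2e-06 for TFF1, 2.7e-05 for SPDEF, 2.8e-05 for SPINK4, 3.4e-05 for TFF3, 4.6e-05 for FCGBP, 0.014 for TCN1, 0.010 for AGR2 and 0.015 for REG4.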

How the results depend on the processing

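Of the members' fold changes under the alternatives, 355 kept their direction and call, 9 were called in addition, 2 lost their call and 5 turned in sign, all of the 5 among changes that were not called. Over the libraries left out in turn, the log2 fold change ranged from -0.023 (without LS513 2D replicate 2) to 0.33 for SPINK4 in LS513, from -0.19 to 0.10 for REG4 in LS513 (0.10 without 2D replicate 1 and 0.098 without 3D replicate 3), from -0.045 (without 3D replicate 2) to 0.68 for TFF2 in LS174T, and from -0.61 to 0.052 (without 2D replicate 1) for REG4 in LS174T. The 2 lost calls are those of FCGBP in HT29. The study's stated cutoffs do not say whether p was adjusted, so both were tried. With an adjusted p under 0.05 plus a change below -0.5 or above 1.5 on the log2 scale, 0 members were called higher in LS513, and 949 and 2422 genes of the whole table were called higher and lower in HT29, 517 and 1040 in LS513, 617 and 1183 in HCT116 and 416 and 991 in LS174T. With these sizes and an unadjusted p, a rule chosen after seeing the data, the counts were 0 members higher in LS513, and 1060 and 2655, 625 and 1356, 703 and 1454, and 553 and 1374 genes in the same lines. Both rules add a size of change. With all genes of at least 1 count, SPDEF was called in addition in HT29 (7 members higher), TFF3 in LS513 (4 higher), FCGBP in HCT116 (1 higher), and TFF1 and REG4 in LS174T (3 lower). In a fit of its own 6 libraries, LS174T had 1099 genes higher and 549 lower.

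Leaving out each library in turn gave 0 to 1 members lower in LS513, where ATOH1 was called without 3D replicate 3, and 0 to 1 higher in HCT116, where TCN1 was called without 2D replicate 3 and FCGBP without 3D replicate 3. Over all genes it gave 973 to 2375 lower in LS513 (main 1920), 1530 to 2870 lower in HCT116 (main 2384), and 1398 to 3212 higher and 685 to 2826 lower in LS174T (main 2531 and 1774). The lowest LS174T values were those without 3D replicate 2 and the highest of the lower count that without 3D replicate 3. Causes were not tested.

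Same-numbered 2D and 3D libraries did not deviate together (11 pairs, correlations from -0.126 to 0.077). With 3 libraries per group, such correlations cannot exclude pairing, so whether the numbers pair the libraries was not settled. With a replicate block the members called higher and lower stayed at 6 and 2 in HT29, 3 and 0 in LS513, 0 and 0 in HCT116 and 6 and 1 in LS174T, the interaction called 8 members instead of 9, the pairs of lines 20 instead of 24, and the interaction over all genes 1698 instead of 3314. Low counts limit HCT116, where 8 members could not be compared, and TCN1 in LS513.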
